A study of Homo sapiens with 24 samples.

Results

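The genes described here are 9 subunits of the complexes that carry class I histone deacetylases (HDACs) to chromatin: SIN3A, SIN3B, MTA1, MTA2, MTA3, RCOR1, RCOR2, KDM1A and NCOR1. They were taken by symbol from the 57820 genes counted in every library, and each symbol matched 1 gene. RNA was sequenced from 24 libraries in 8 groups of 3 biological replicates. In 4 groups the cells were AID-DIvA, U2OS osteosarcoma cells with an integrated vector for the restriction enzyme AsiSI, either WT or ID3-KO. They were untreated, or exposed to mocetinostat, which inhibits class I HDACs, for 24 h before 24 h of recovery without it. In the other 4 groups U2OS cells, WT or ID3-KO, were untreated or given mocetinostat, and that they were collected after 24 h with no recovery was inferred from the methods. Cell line and stage of collection thus coincide, and their effects cannot be told apart. The sources used here give no mocetinostat dose for the RNA libraries and do not say whether the ID3-KO cells are 1 clone, and the labels name no AsiSI induction. The labels' treatment entry for AID-DIvA cells names the opposite treatment to the titles. The titles were followed, since the study's list of sequenced samples uses the same names, and every direction given for AID-DIvA cells rests on them. By the titles CDKN1A, a cell cycle inhibitor gene known to respond to HDAC inhibitors, was higher with mocetinostat in AID-DIvA cells (log2 1.21 in WT and 0.94 in KO) as in U2OS cells (0.92 and 0.96, adjusted p from 5.43e-14 to 0.000195, edgeR). H1F0, also on the list of response genes, was higher in U2OS (0.50 and 0.59) and not called in AID-DIvA cells (0.0065 and -0.17), and HEXIM1 was called in WT AID-DIvA (-0.25) and KO U2OS cells (0.31). The labels call the controls untreated, whereas headings in the supplement of the study name DMSO as the control, and the name untreated is kept here.

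Class I HDACs (HDAC1, HDAC2 and HDAC3) remove acetyl groups from histone tails and work inside large corepressor complexes, which DNA-binding factors recruit to lower the transcription of genes. HDAC1 and HDAC2 are shared by the SIN3, NuRD and CoREST complexes, built around the SIN3 scaffolds, the MTA subunits and the RCOR scaffolds, and CoREST couples them to KDM1A (LSD1), a histone H3 lysine demethylase. HDAC3 acts in the complex of NCOR1, known for silencing by nuclear receptors that have no ligand bound.

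Promoters are shown for 4 of the members that moved the same way in treated U2OS cells of both genotypes: RCOR1 and KDM1A, which rose, and MTA2 and MTA3, which fell. MTA1, which also fell in both, is not printed, and RCOR2, which rose in both, had no promoter in the table used. The sequences are from RefSeq (GRCh38.p14, another build than the hg19 of the counts), each the 250 bases before an annotated start, 5′ to 3′ on the gene's strand. Capitals mark E-boxes (CANNTG), the motif of the basic helix-loop-helix factors that ID proteins bind, and GC boxes (GGGCGG, or CCGCCC on the other strand), the motif of SP and KLF factors.
RCOR1, chr14:102592399-102592648, + strand: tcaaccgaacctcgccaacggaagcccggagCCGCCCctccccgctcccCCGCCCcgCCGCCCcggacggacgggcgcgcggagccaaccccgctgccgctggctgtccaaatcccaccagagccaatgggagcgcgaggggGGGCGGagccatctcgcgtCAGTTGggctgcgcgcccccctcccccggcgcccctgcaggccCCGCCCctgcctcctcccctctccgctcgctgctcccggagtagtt
KDM1A, chr1:23019218-23019467, + strand: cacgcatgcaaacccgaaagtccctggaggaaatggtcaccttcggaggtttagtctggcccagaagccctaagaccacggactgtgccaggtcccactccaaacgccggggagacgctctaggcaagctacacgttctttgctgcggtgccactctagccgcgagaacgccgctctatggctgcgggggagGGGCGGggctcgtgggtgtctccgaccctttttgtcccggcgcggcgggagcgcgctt
MTA2, chr11:62601866-62602115, - strand: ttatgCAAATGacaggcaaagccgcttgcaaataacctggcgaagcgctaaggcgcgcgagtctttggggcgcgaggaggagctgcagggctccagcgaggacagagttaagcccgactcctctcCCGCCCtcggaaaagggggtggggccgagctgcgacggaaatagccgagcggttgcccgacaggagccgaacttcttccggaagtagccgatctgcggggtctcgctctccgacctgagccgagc
MTA3, chr2:42493860-42494109, + strand: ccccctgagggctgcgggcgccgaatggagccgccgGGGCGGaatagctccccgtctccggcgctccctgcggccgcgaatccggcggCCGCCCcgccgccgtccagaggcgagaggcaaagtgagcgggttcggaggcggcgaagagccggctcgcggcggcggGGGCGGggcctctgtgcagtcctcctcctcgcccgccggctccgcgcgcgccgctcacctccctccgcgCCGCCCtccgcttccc

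The RCOR1 window held 1 E-box and 5 GC boxes, and the KDM1A window no E-box and 1 GC box. MTA2 held 1 of each, and MTA3 no E-box and 4 GC boxes, whereas the windows of a second start had no E-box and 1 GC box for MTA2 and 3 E-boxes and no GC box for MTA3. The windows shown were rich in G and C, from 63.2% in MTA2 to 79.2% in MTA3, and those of the second starts had 74.4% (MTA2) and 56.0% (MTA3). Promoters were matched for 8 of the 9 members, 12 in all, and RCOR2 had none in the table used. An E-box was present in 5 of these 12, against 61.8% of the 35116 promoters in the table, and a GC box in 8, against 42.6%. A CCAAT box (CCAAT) was present in 4 and a TATA box (TATAAA) in 2, against 32% and 10.7%. Both strands were searched, and a match of letters is no evidence of binding.

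Total counts ran from 37878751 to 76906266 per AID-DIvA library and from 46285533 to 70692114 per U2OS library, and every member had at least 81 counts in every library. ID3, the targeted gene, was counted in every library and was lower in untreated KO than WT cells, by a log2 change of -0.56 in AID-DIvA and -1.03 in U2OS (adjusted p = 8.38e-06 and 0.00651, edgeR). With mocetinostat ID3 RNA rose in AID-DIvA cells, by 1.245 in WT and 0.90 in KO (adjusted p = 9.14e-08 and 3.77e-05, edgeR). In treated U2OS cells it changed by 0.40 in WT and 0.22 in KO (adjusted p = 0.0883 and 0.0215, edgeR). Of 8 osteoblast and mesenchymal markers, SPARC, COL1A1, VIM and RUNX2 stayed at or above 11.8 CPM (counts scaled to the library total and its TMM factor), while ALPL reached at most 6.95 and COL1A2, SP7 and BGLAP at most 1.37, 0.11 and 0.69. The 4 leukocyte markers stayed at or below 0.41 CPM and the endothelial CDH5 at or below 0.92, while the epithelial KRT8 ran from 132 to 310 CPM, EPCAM from 4.42 to 10.4, CDH1 up to 2.002, and the neuronal RBFOX3 and SNAP25 up to 24.9 and 14.9. Replicate 1 of untreated WT U2OS cells stood apart, with a chi-square per gene of 104 and 91.6 to the other replicates, which differed from each other by 4.33. In the other groups the largest value was 27.4. Its levels ran with exonic length, with a median log2 ratio to the other replicates of 0.26 for genes under 2 kb and -0.45 for genes over 10 kb. Among the members NCOR1, SIN3A and RCOR1 were lowest in it, with log2 ratios of -0.79, -0.57 and -0.43. Its part in the results was not tested. Calls of the members that changed without it are given beside each result, as are calls or log2 changes of the other subunits named in treated WT U2OS cells. Without it the difference of ID3 between untreated U2OS genotypes was -0.80 (adjusted p = 1.58e-17, edgeR). The change of ID3 in treated WT U2OS cells was then 0.63 (adjusted p = 3.69e-12, edgeR). In treated WT U2OS cells CDKN1A, H1F0 and HEXIM1 then changed by 1.03, 0.54 and 0.39 on the log2 scale. HEXIM1 was then called (adjusted p = 3.27e-12, edgeR), unlike with all libraries (log2 0.26, adjusted p = 0.0897, edgeR).

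In untreated cells the subunits spanned a wide range of levels per length. In RPKM (CPM per kilobase of exon), MTA2 had a median of 45.4 over the 12 untreated libraries (lowest 41.6, highest 48.7). KDM1A followed at 25.3 (22.8 to 26.4) and SIN3A at 16.2 (10.9 to 17.9). MTA1, SIN3B, MTA3 and NCOR1 had medians of 8.50, 7.76, 7.42 and 7.36 with overlapping ranges, so their order was within the spread. RCOR1 had a median of 5.89 (3.71 to 7.01). RCOR2 was lowest at 1.04 (0.69 to 1.40), below every library of every other member.

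**Figure D1:**
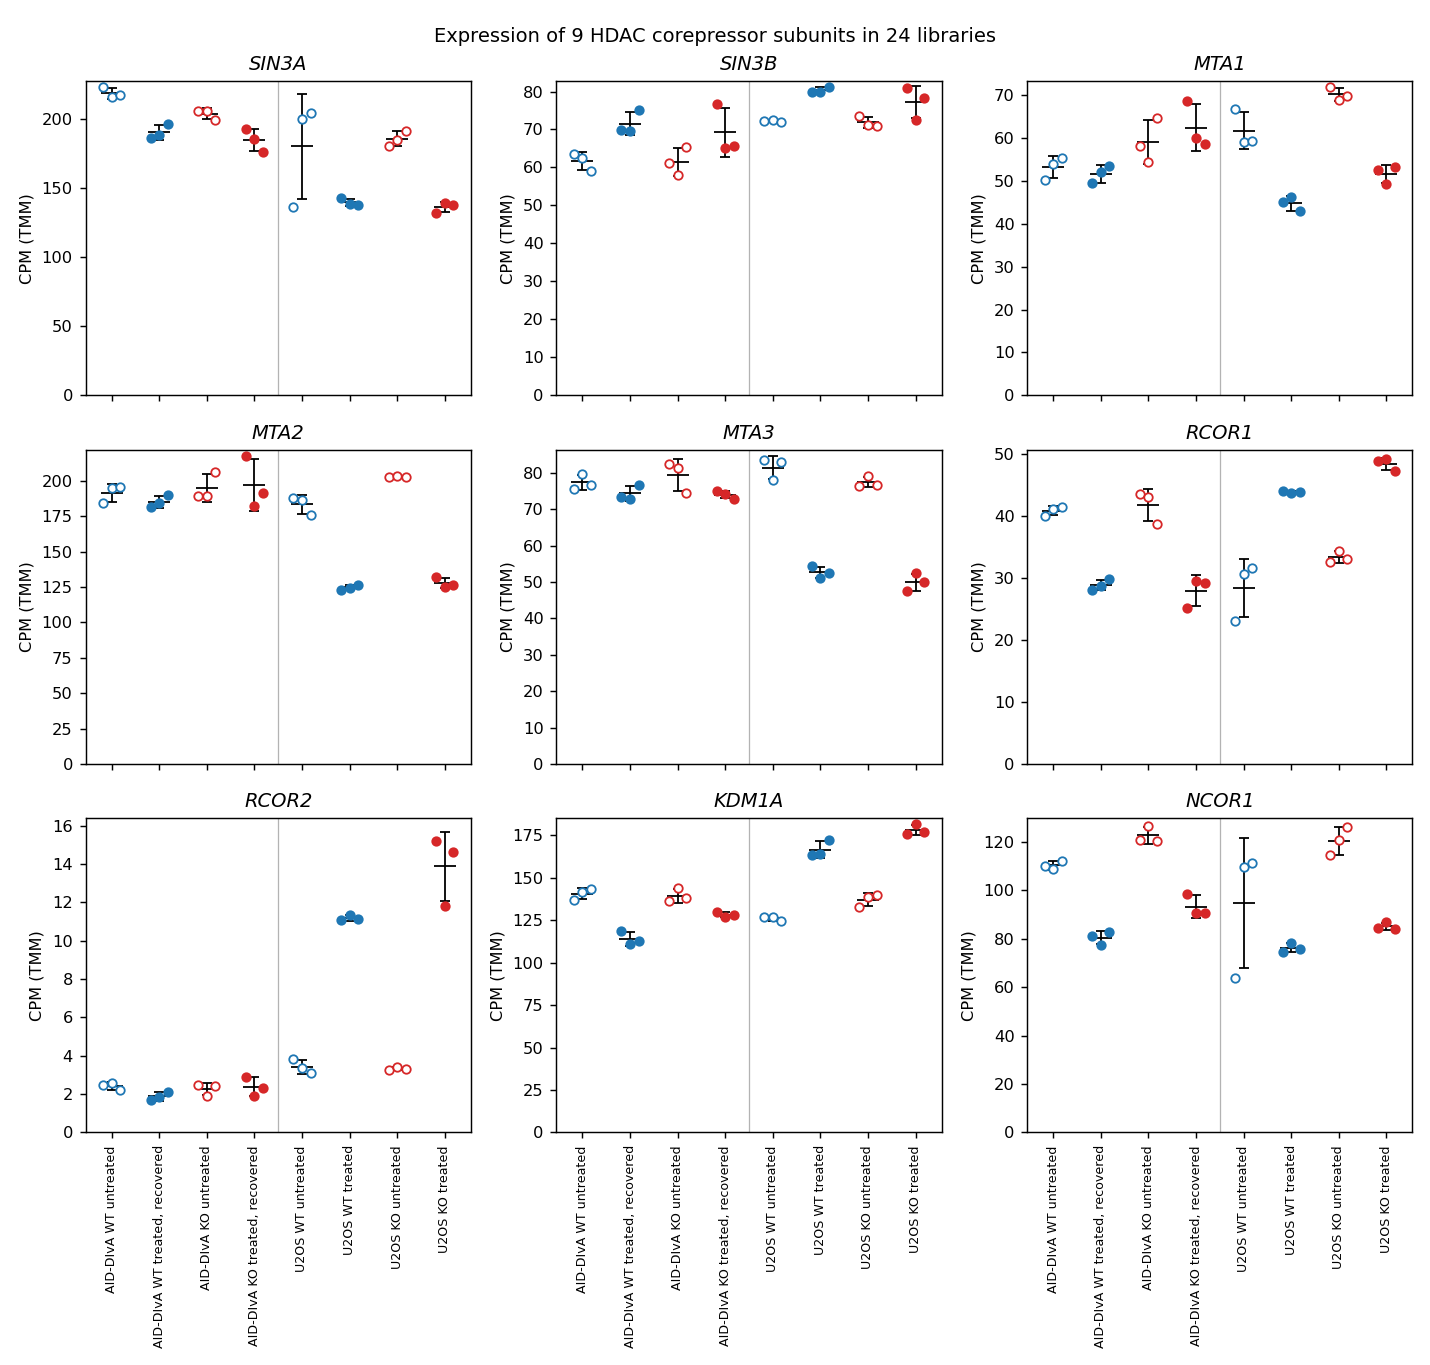
Level of each subunit in CPM (linear axis, TMM-scaled) in the 24 libraries, one point per replicate, open for untreated and filled for treated cells, with the mean and SD of 3 replicates. RCOR2 lies between 3.11 and 3.82 CPM in untreated and between 11.1 and 15.2 in treated U2OS cells, and replicate 1 of untreated WT U2OS cells lies below its group for SIN3A, RCOR1 and NCOR1.

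In U2OS cells collected after mocetinostat, the CoREST members rose and the MTA members fell in both genotypes. In WT cells RCOR1, RCOR2 and KDM1A were upregulated and MTA1, MTA2 and MTA3 downregulated at an adjusted p below 0.05, 6 of 9 members, against 48.9% of the 21797 genes tested (26% up and 22.9% down). In ID3-KO cells 4 members were upregulated and 5 downregulated, against 69.9% of 21176 genes (35.8% up and 34% down). Since most genes were called in KO cells, being called does not set the members apart there. The median log2 change of the members was -0.30 in WT and -0.44 in KO cells, beside 0.0058 and 0.00086 over all genes tested. In bulk RNA, fewer cells of a type and less RNA per cell cannot be told apart.

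Markers of cell types moved with treatment as well. The median of the neuronal RBFOX3 was 5.44 CPM in untreated and 23.8 in treated WT U2OS cells, and 2.57 and 13.1 in KO cells. For SNAP25 the medians were 8.99 and 13.96 CPM in WT, and 7.83 and 12.8 in KO cells. The osteoblast factor RUNX2 went from 44.3 to 15.5 CPM in WT and from 24.8 to 12.7 in KO cells. EPCAM went from 5.59 to 9.02 and from 6.004 to 10.2, and CDH5 from 0.11 to 0.77 and from 0.14 to 0.72. None of these groups overlapped, and SPARC, COL1A1, ALPL and KRT8 were lower in all treated U2OS libraries of either genotype. The other osteoblast and mesenchymal markers did not all fall. COL1A2 was higher without overlap, with medians from 0.99 to 1.25 CPM in WT and from 0.14 to 0.24 in KO cells. VIM was lower in treated WT cells only and BGLAP in treated KO cells only, and SP7 overlapped in both. The part of these shifts in the changes of the members was not tested.

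RCOR2 (ENSG00000167771.5, chr11:63678693-63684316, - strand, hg19, as for the positions that follow) is a CoREST scaffold known from embryonic and neural cells. In WT U2OS cells it stood at 3.82, 3.38 and 3.11 CPM untreated and at 11.1, 11.3 and 11.1 treated. Values in KO cells were 3.28, 3.41 and 3.33 CPM untreated and 15.2, 11.8 and 14.6 treated. All treated libraries lay far above all untreated ones. The log2 change was 1.71 in WT (SE 0.11, adjusted p = 1.25e-05) and 2.06 in KO cells (SE 0.10, adjusted p = 9.29e-15, edgeR), or 3.27-fold and 4.18-fold. Of the 9 members it alone changed by more than a log2 value of 1, as 13.6% of genes did upward in WT and 14.6% in KO cells.

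RCOR1 (ENSG00000089902.8, chr14:103058998-103196913, + strand), the widely expressed CoREST scaffold, rose less. It stood at 23.0, 30.6 and 31.6 CPM in untreated and 43.97, 43.71 and 43.94 in treated WT cells. In KO cells the values were 32.6, 34.4 and 33.1 CPM untreated and 48.8, 49.1 and 47.3 treated. Treated and untreated libraries did not overlap. The log2 change was 0.64 in WT (SE 0.12, adjusted p = 0.00307, edgeR), 0.51 there without the library that stood apart, and 0.54 in KO cells (SE 0.05, adjusted p = 8.78e-10).

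KDM1A (ENSG00000004487.11, chr1:23345941-23410182, + strand) is the demethylase that these scaffolds hold. It stood at 127, 127 and 124 CPM in untreated and 164, 164 and 172 in treated WT cells. In KO cells it stood at 133, 139 and 139.7 CPM untreated and 176, 182 and 177 treated. Every treated library exceeded every untreated one, with log2 changes of 0.41 in WT (adjusted p = 0.0014) and 0.38 in KO cells (adjusted p = 2.79e-08, edgeR).

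The MTA genes encode alternative subunits that anchor HDAC1 and HDAC2 in NuRD. MTA2 (ENSG00000149480.2, chr11:62360686-62369312, - strand) stood at 188, 186 and 176 CPM in untreated and 123, 125 and 127 in treated WT cells. KO cells had 203, 204 and 203 CPM untreated and 132, 125 and 126 treated. The treated libraries were the lower ones in both genotypes, without overlap. The log2 change was -0.55 in WT (95% interval -0.70 to -0.39, adjusted p = 0.000385) and -0.66 in KO cells (95% interval -0.75 to -0.58, adjusted p = 2.49e-12, edgeR). MTA3 (ENSG00000057935.9, chr2:42721709-42984087, + strand) stood at 83.6, 78.0 and 83.0 CPM in untreated and 54.3, 51.2 and 52.6 in treated WT cells, and at 76.5, 79.1 and 76.7 and 47.6, 52.4 and 49.9 in KO cells. It fell by 0.62 on the log2 scale in WT and by 0.63 in KO cells (adjusted p = 0.000251 and 4.76e-11, edgeR). MTA1 (ENSG00000182979.13, chr14:105886159-105937066, + strand) stood at 66.7, 59.1 and 59.4 CPM in untreated and 45.1, 46.4 and 42.9 in treated WT cells, and at 71.9, 69.0 and 69.8 and 52.5, 49.2 and 53.3 in KO cells. It fell by 0.45 and 0.44 (adjusted p = 0.00264 and 2.21e-08, edgeR), and neither MTA1 nor MTA3 had overlapping groups. MTA1 overlaps RP11-521B24.5 on the opposite strand and TEX22 on its own, and its counts by the reverse strand were 109% to 114% of those from either strand.

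SIN3A and NCOR1 depended on the library that stood apart. SIN3A (ENSG00000169375.11, chr15:75661720-75748183, - strand), a scaffold of the SIN3 complex, stood at 136, 199.9 and 204 CPM in untreated and 142, 138 and 138 in treated WT cells. Replicate 1 of the untreated cells lay below all 3 treated libraries, so the groups overlapped and the change was not called (log2 -0.36, 95% interval -0.70 to -0.02, adjusted p = 0.0767, edgeR). Without that library it was -0.53 (adjusted p = 4.05e-19, with 3 of 14 alternatives past the threshold and a range of 4.05e-19 to 0.204). In KO cells SIN3A stood at 181, 185 and 191 CPM untreated and 132, 139 and 138 treated, without overlap, and fell by 0.44 on the log2 scale (adjusted p = 3.98e-09, edgeR).

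NCOR1 (ENSG00000141027.16, chr17:15932471-16121499, - strand), the scaffold that activates HDAC3, stood at 63.8, 109.5 and 111 CPM in untreated and 74.7, 78.3 and 75.7 in treated WT cells, again with replicate 1 below the treated libraries. Its change there was -0.30 (95% interval -0.75 to 0.14, adjusted p = 0.231, edgeR), and -0.53 without that library (adjusted p = 9.04e-18, the one alternative of 14 past the threshold, in a range of 9.04e-18 to 0.504). In KO cells it stood at 114, 121 and 126 CPM untreated and 84.6, 86.8 and 83.9 treated, without overlap, and fell by 0.50 (adjusted p = 1.61e-09, edgeR). NCOR1 overlaps TTC19 and PIGL on the opposite strand, which were counted at up to 23.6 and 6.76 CPM.

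SIN3B (ENSG00000127511.5, chr19:16940211-16991164, + strand), the other SIN3 scaffold, moved little. It stood at 72.3, 72.5 and 72.0 CPM in untreated and 79.9, 79.9 and 81.3 in treated WT cells, which did not overlap but did not pass the test (log2 0.16, 95% interval 0.02 to 0.31, adjusted p = 0.0667, edgeR). Without the library that stood apart this change was called (log2 0.16, adjusted p = 0.000232, edgeR). It was past the threshold in 4 of 14 alternatives, with a range of 0.000232 to 0.217. Values in KO cells were 73.6, 71.3 and 70.9 CPM untreated and 80.9, 72.5 and 78.4 treated, and the groups overlapped. Its call in KO cells lay at the threshold (log2 0.11, SE 0.05, adjusted p = 0.0449, edgeR), with 5 of 14 alternatives past it and a range of 0.000917 to 0.157. It was lost without any 1 of the 3 untreated KO libraries (adjusted p from 0.0512 to 0.146) and without treated KO replicate 1 or 3 (0.157 and 0.14).

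Without replicate 1 of untreated WT cells, all 9 members were called in WT U2OS cells, 4 up and 5 down, when 66.4% of 22423 genes were. Over all genes, the median log2 change in the WT comparison ran from -0.19 under 2 kb of exon to 0.08 over 10 kb, and in the KO comparison from -0.11 to -0.04. The members are between 2738 bases (RCOR2) and 15393 bases (NCOR1) of exon long, and the part of length in their changes was not tested.

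**Figure D2:**
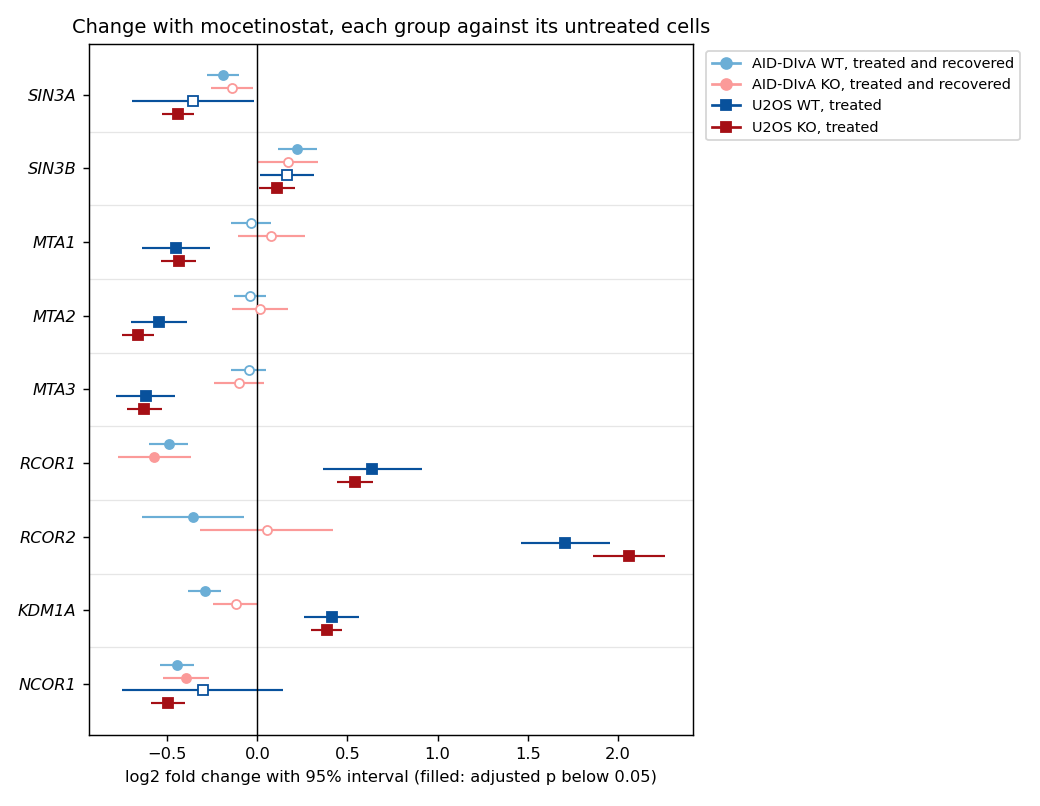
Log2 change of each subunit with mocetinostat (horizontal axis) and its 95% interval in AID-DIvA cells (treated and recovered) and U2OS cells (treated), WT and KO, filled where the adjusted p was below 0.05. RCOR1 and KDM1A lie right of 0 in U2OS and left of it in AID-DIvA cells, and the MTA genes lie at or below -0.44 in U2OS and between -0.10 and 0.08 in AID-DIvA cells.

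In AID-DIvA cells after recovery, RCOR1 and NCOR1 were down in both genotypes and the MTA genes were not called. In WT cells 1 of 9 members (SIN3B) was upregulated and 5 (SIN3A, RCOR1, RCOR2, NCOR1 and KDM1A) were downregulated, against 46.9% of 20289 genes (23.9% up and 23% down). In KO cells edgeR called 0 members up and 2 down (RCOR1 and NCOR1), against 40.1% of 20362 genes (20.2% up and 19.9% down). DESeq2 gave the same numbers there, and at an unadjusted p below 0.05 there were 3 members, SIN3A being the third. The median log2 change of the members was -0.19 in WT and -0.10 in KO cells, beside -5e-04 and -0.02 over all genes. The neuronal markers moved with treatment here too, without overlap, with medians of RBFOX3 from 5.49 to 13.2 CPM in WT and from 2.12 to 7.55 in KO cells, and of SNAP25 from 9.11 to 13.3 and from 8.49 to 12.1. EPCAM, CDH5 and ALPL were also higher and SPARC, COL1A1 and VIM lower in the recovered libraries of each genotype, without overlap. ALPL thus moved opposite to U2OS cells, with medians from 3.09 to 6.19 CPM in WT and from 0.70 to 1.25 in KO cells. RUNX2 overlapped in WT cells and was higher in recovered KO cells (medians 18.3 and 24.9 CPM). COL1A2 and CDH1 were higher in WT cells only, and KRT8, SP7 and BGLAP overlapped in both. The part of these markers in the changes was not tested.

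RCOR1 stood at 40.1, 41.1 and 41.4 CPM in untreated and 28.1, 28.7 and 29.8 in recovered WT cells. In KO cells it stood at 43.5, 43.0 and 38.7 CPM untreated and 25.1, 29.6 and 29.2 recovered. The recovered libraries were all lower, with log2 changes of -0.49 in WT (SE 0.05, adjusted p = 3.18e-06) and -0.57 in KO cells (SE 0.09, adjusted p = 0.000878, edgeR). NCOR1 stood at 110.2, 109 and 112 CPM in untreated and 81.2, 77.4 and 82.9 in recovered WT cells, and at 121, 127 and 120.4 and 98.7, 90.6 and 90.7 in KO cells. Its groups did not overlap either, and it fell by 0.45 in WT and 0.39 in KO cells on the log2 scale (adjusted p = 2.46e-06 and 0.000524, edgeR). Both genes were past the threshold in all 14 alternatives of either genotype.

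KDM1A stood at 137, 142 and 143 CPM in untreated and 119, 111 and 113 in recovered WT cells and fell by 0.29 (SE 0.04, adjusted p = 8.53e-05, edgeR). KO cells had 136, 144 and 138 CPM untreated and 129.9, 127 and 128 recovered. Neither pair of groups overlapped, but the KO difference did not pass the test (log2 -0.12, 95% interval -0.25 to 0.0042, adjusted p = 0.113, edgeR). RCOR2 stood at 2.48, 2.59 and 2.21 CPM in untreated and 1.67, 1.86 and 2.10 in recovered WT cells, on 81 to 151 counts per library. This decrease lay near the threshold (log2 -0.36, 95% interval -0.64 to -0.08, adjusted p = 0.0375, edgeR), with 7 of 14 alternatives past it and a range of 0.0202 to 0.142. Leaving out replicate 1 or 2 of either WT group ended the call, with adjusted p from 0.0854 to 0.137. In KO cells RCOR2 stood at 2.46, 1.90 and 2.44 CPM untreated and 2.91, 1.90 and 2.34 recovered, overlapping groups with a log2 difference of 0.05 (95% interval -0.32 to 0.42, adjusted p = 0.824, edgeR).

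SIN3A stood at 223, 216 and 217 CPM in untreated and 186, 188 and 196 in recovered WT cells and fell by 0.19 (adjusted p = 0.00167, edgeR). In KO cells it stood at 206, 206 and 199 CPM untreated and 192, 185 and 176 recovered (log2 -0.14, 95% interval -0.26 to -0.02, adjusted p = 0.0595, edgeR). The groups did not overlap in either genotype. SIN3B stood at 63.6, 62.5 and 59.1 CPM in untreated and 69.8, 69.7 and 75.0 in recovered WT cells, without overlap, and rose by 0.22 (adjusted p = 0.00262, edgeR). Values in KO cells were 61.1, 58.0 and 65.4 CPM untreated and 76.7, 65.2 and 65.8 recovered, and the groups overlapped (log2 0.17, 95% interval -0.0016 to 0.34, adjusted p = 0.105, edgeR). The 3 MTA genes were called in neither genotype, nor in any alternative, nor at an unadjusted p below 0.05. MTA2 stood at 184 to 196 CPM untreated and 181 to 190 recovered in WT cells, and at 189 to 206 and 183 to 217 in KO cells. The 95% intervals of the MTA genes lay within -0.15 to 0.08 in WT and -0.24 to 0.26 in KO cells, and these hold none of the changes measured in treated U2OS cells.

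The responses in U2OS and AID-DIvA cells were compared over all 24 libraries, averaged over the genotypes. The difference was called for 7 of 9 members, positive (U2OS minus AID-DIvA) for 3 and negative for 4, against 57.5% of 23087 genes (29.6% positive and 27.9% negative). For RCOR2 it was 2.04 (95% interval 1.76 to 2.31, adjusted p = 9.94e-13, edgeR), for RCOR1 1.12 (95% interval 0.95 to 1.29) and for KDM1A 0.60 (95% interval 0.50 to 0.71). For MTA2, MTA3 and MTA1 it was -0.60, -0.55 and -0.47, with SEs of 0.06, 0.06 and 0.07. These 6 passed the threshold in all 31 alternatives. For SIN3A it was -0.24 (95% interval -0.42 to -0.05, adjusted p = 0.025, edgeR), past the threshold in 27 of 31 alternatives with a range of 8.35e-08 to 0.246, and not without replicate 2 or 3 of untreated WT U2OS cells (adjusted p = 0.0533 and 0.0569). SIN3B (-0.06, 95% interval -0.20 to 0.07) and NCOR1 (0.02, 95% interval -0.22 to 0.26) were not called. Over all genes the median of this difference ran from -0.23 under 2 kb of exon to 0.12 over 10 kb.

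Between untreated ID3-KO and WT cells the differences called in these genes were small, and in U2OS cells the intervals of some genes were wide. In AID-DIvA cells SIN3A was lower in KO, at 206, 206 and 199 CPM against 223, 216 and 217 in WT (log2 -0.12, SE 0.04, adjusted p = 0.0218, edgeR). NCOR1 was higher in KO, at 121, 127 and 120.4 CPM against 110.2, 109 and 112 (log2 0.13, SE 0.04, adjusted p = 0.0247, edgeR). These 2 calls of 9 stand beside 36.7% of 20441 genes, 18.6% higher and 18.1% lower. Neither gene's groups overlapped, but each call held in only 8 of 14 alternatives, with adjusted p from 0.00324 to 0.112 for SIN3A and 0.00321 to 0.13 for NCOR1. It was lost for both genes without any 1 of the 3 untreated WT libraries (adjusted p from 0.0545 to 0.13), for SIN3A also without KO replicate 1 (0.0787) and for NCOR1 without KO replicate 2 (0.0762).

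In untreated U2OS cells 0 of 9 members were called between the genotypes by edgeR or by DESeq2, against 15.2% of 20621 genes, and 1 (MTA1) had an unadjusted p below 0.05. Without the library that stood apart, 5 were called, when 41.1% of 20973 genes were. MTA1 (0.245), MTA2 (0.16), NCOR1 (0.13) and KDM1A (0.12) were then higher and SIN3A (-0.12) lower in KO cells on the log2 scale, with adjusted p from 2.56e-06 to 0.0069 (edgeR).

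The genotype by treatment interaction was called for 0 of 9 members in AID-DIvA cells, against 1.21% of 21265 genes, and for 0 of 9 in U2OS cells, against 2.15% of 22647 genes, by edgeR and likewise by DESeq2. At an unadjusted p below 0.05 there was 1 member in each, KDM1A in AID-DIvA and RCOR2 in U2OS cells. The response of KDM1A in AID-DIvA cells was higher in KO by 0.18 (95% interval 0.04 to 0.32, adjusted p = 0.279, edgeR). The response of RCOR2 was higher in KO by 0.36 in U2OS (95% interval 0.03 to 0.68, adjusted p = 0.315) and by 0.42 in AID-DIvA cells (95% interval -0.04 to 0.88, adjusted p = 0.479, edgeR). The intervals of MTA3 were narrower, -0.20 to 0.11 in AID-DIvA and -0.18 to 0.17 in U2OS cells.

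**Figure D3:**
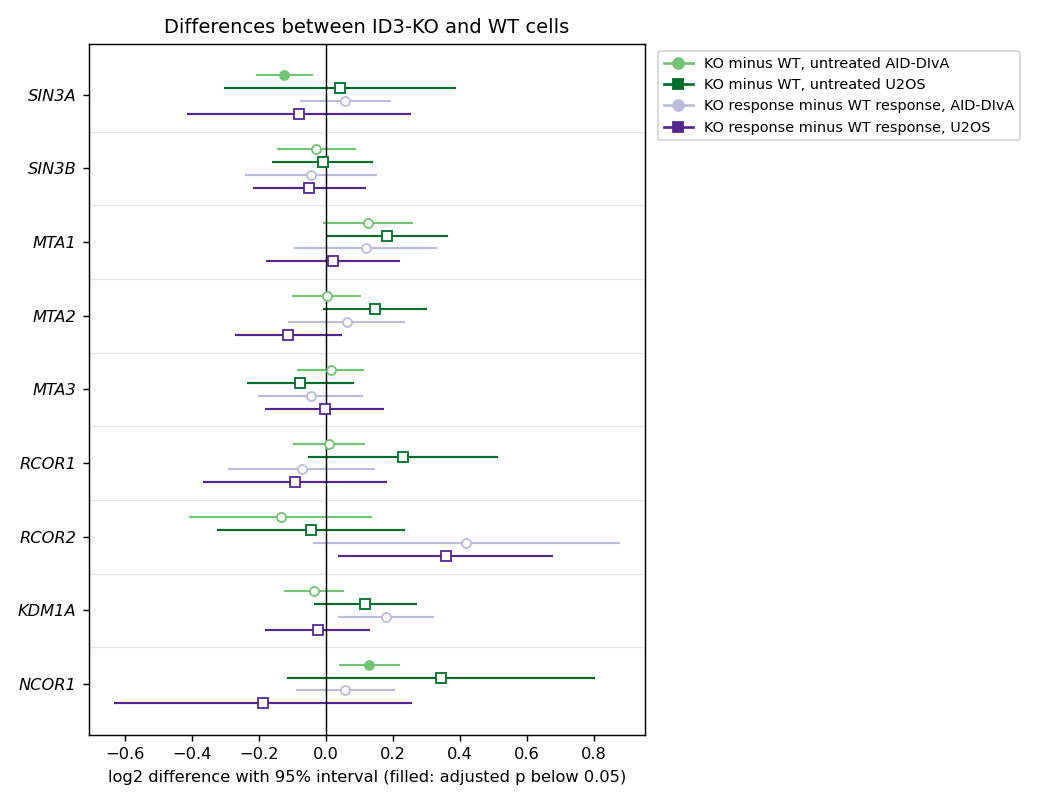
Differences between ID3-KO and WT cells (horizontal axis, log2, with 95% intervals) in untreated AID-DIvA and U2OS cells and in the response to mocetinostat, filled where the adjusted p was below 0.05. The filled points are SIN3A at -0.12 and NCOR1 at 0.13 in untreated AID-DIvA cells.

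Per length, the balance of paralogues shifted for the RCOR and SIN3 genes, and by fewer percentage points for the MTA genes. RCOR2 made up 13.3% ± 2.89 (SD, n = 3) of the summed RPKM of RCOR1, RCOR2 and RCOR3 in untreated and 28.96% ± 0.376 in treated WT U2OS cells. In KO cells its share was 11.85% ± 0.135 and 32.1% ± 3.21. The paralogue RCOR3 went from 39.0% to 20.9% in WT and from 35.9% to 18.4% in KO cells, while RCOR1 lay between 44.1% and 52.7% in every U2OS library. The summed RPKM of the RCOR genes was 9.57 ± 0.999 untreated and 14.1 ± 0.0379 treated in WT, and 10.3 ± 0.317 and 15.8 ± 0.505 in KO cells. In AID-DIvA cells RCOR2 had 7.71% ± 0.666 untreated and 7.70% ± 0.817 recovered in WT, and 7.15% ± 1.11 and 9.71% ± 2.47 in KO cells, with overlap in both. RCOR1 had 57.2% ± 0.438 untreated and 52.3% ± 1.32 recovered in WT, and 58.1% ± 1.75 and 49.9% ± 2.34 in KO cells. RCOR3 had 35.1% ± 0.703 and 39.98% ± 2.11 in WT, and 34.8% ± 1.44 and 40.4% ± 0.485 in KO cells. After recovery the share of RCOR1 was thus lower and that of RCOR3 higher in every library.

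SIN3B made up 36.8% ± 5.37 of the SIN3 sum in untreated and 45.0% ± 0.627 in treated WT U2OS cells, and 35.5% ± 1.10 and 44.6% ± 1.96 in KO cells. In AID-DIvA cells its share was 28.6% ± 0.659 untreated and 34.8% ± 0.346 recovered in WT, and 30.0% ± 1.66 and 34.7% ± 1.41 in KO cells. In all 4 comparisons every treated library had a higher SIN3B share than every untreated one. In KO U2OS cells MTA1 had 15.1% to 15.8% of the MTA sum untreated and 17% to 18.1% treated, and MTA2 had 73.2% to 73.5% and 70.7% to 72.2%, both without overlap. In WT U2OS cells the treated share of MTA1, 15.02% to 16.3%, overlapped the untreated one through the library that stood apart (14.2% to 15.5%, or at most 14.7% without it), and MTA2 overlapped at 71.7% to 73.5% and 71.5% to 72.9%. The MTA3 shares, and all 3 shares in AID-DIvA cells, overlapped between treated and untreated libraries. The MTA sum was 59.9 ± 1.94 RPKM untreated and 40.9 ± 0.177 treated in WT, and 65.4 ± 0.145 and 42.3 ± 0.837 in KO U2OS cells. The spread in untreated WT U2OS cells includes the library that stood apart, and without it RCOR2 had 11.1% to 12.3% and SIN3B 33.4% to 33.97%. The shares are descriptions, with no test.

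**Figure D4:**
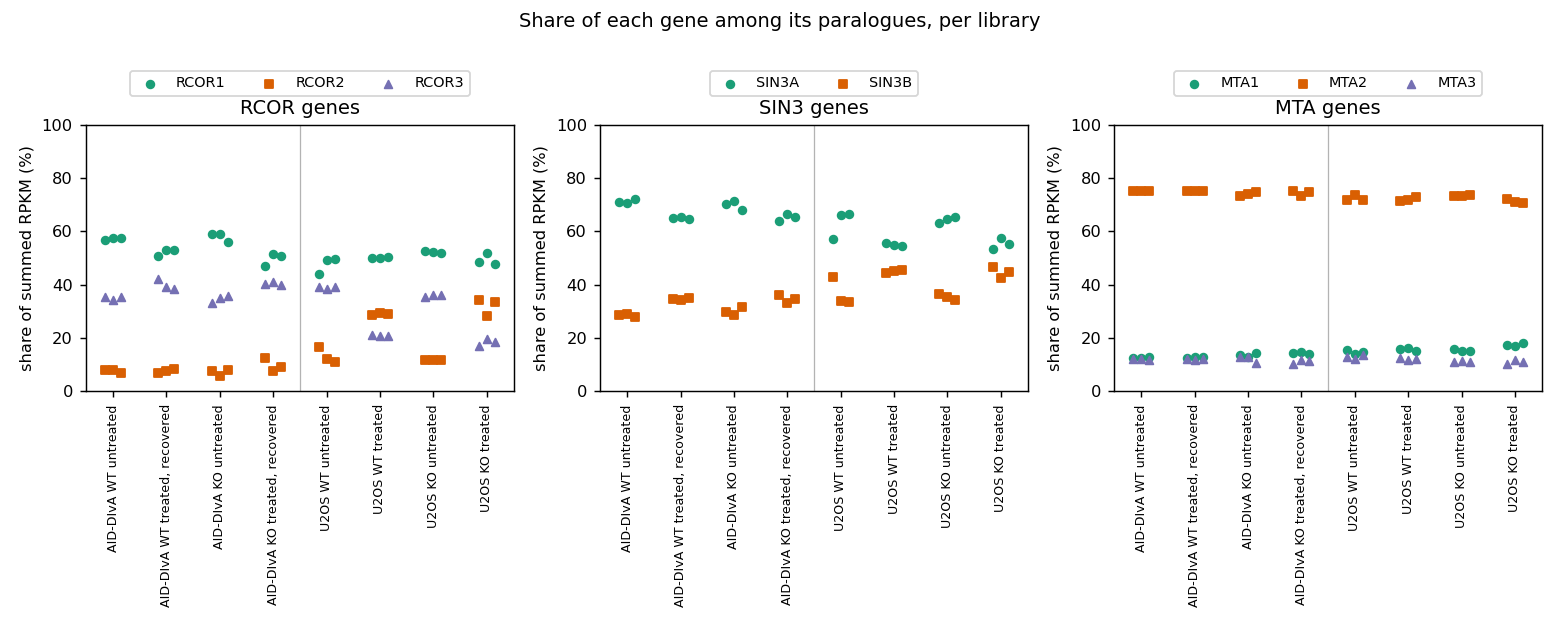
Share of each paralogue in the summed RPKM of its family (vertical axis, percent), one point per library in 8 groups. RCOR2 lies between 11.1% and 16.6% in untreated and between 28.4% and 34.25% in treated U2OS libraries, and MTA2 between 70.7% and 75.3% in the 24 libraries.

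The other subunits were described from a list of 44 genes. These were subunits of these complexes and of the related MiDAC complex, and REST, a recruiter that is counted with them. In WT U2OS cells 7 of 44 were upregulated and 15 downregulated, beside 26% and 22.9% of all genes, so that the 22 called stood near the share of 48.9% over all genes. In KO U2OS cells 13 and 21 of 43 were called, beside 35.8% and 34%. In AID-DIvA cells 10 of 43 were upregulated and 16 downregulated in WT, beside 23.9% and 23%, and 8 and 11 in KO cells, beside 20.2% and 19.9%. The WT U2OS counts depended on single libraries: they were 12 up and 24 down without the library that stood apart, when 66.4% of all genes were called, and 5 and 9, 5 and 8 or 4 and 9 without treated replicate 1, 2 or 3, when 35.9%, 36.4% and 36.2% were. The median log2 change lay between -0.13 and -0.09 in the 4 comparisons. The catalytic HDAC1, HDAC2 and HDAC3 rose in U2OS cells, by 0.22, 0.32 and 0.61 in WT and by 0.29, 0.42 and 0.68 in KO cells (adjusted p from 3.38e-12 to 0.0252, edgeR). Without the library that stood apart the WT values were 0.24, 0.35 and 0.67. In AID-DIvA cells HDAC3 fell by 0.21 in recovered WT cells, and the other treatment tests of these genes there were not called. Between untreated AID-DIvA genotypes HDAC1 and HDAC2 were higher in KO by 0.35 and 0.30 and HDAC3 differed by -0.18 (adjusted p = 5.03e-06, 0.000106 and 0.00502, edgeR), and in untreated U2OS cells HDAC1 was higher in KO by 0.28 (adjusted p = 0.0307, edgeR), or by 0.31 without the library that stood apart.

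The calls among the other CoREST genes in U2OS cells were downward. Of these 9 genes, 6 were downregulated in WT and 9 in KO U2OS cells, beside 22.9% and 34% of all genes, with medians of -0.33 and -0.34, among them the zinc finger subunit ZMYM3 (-1.05 and -1.28) and the corepressor CTBP1 (-0.69 and -0.71). In WT cells HMG20B, GSE1 and PHF21A did not pass the test (log2 -0.24, -0.19 and -0.17, adjusted p = 0.218, 0.134 and 0.214, edgeR), and without the library that stood apart HMG20B alone did not. Of the 8 other genes listed under NuRD, 2 rose and 3 fell in WT, and 2 rose and 6 fell in KO U2OS cells. Over all genes 26% rose and 22.9% fell in WT, and 35.8% rose and 34% fell in KO cells. The remodeller CHD3 had the lowest log2 change of the called genes in U2OS cells, -1.46 and -1.59, and the subunit MBD3 stood at -1.11 and -0.92. Both were also downregulated in recovered AID-DIvA cells (adjusted p from 9.39e-06 to 0.0194, edgeR). CHD3 stood at -0.46 in WT, the lowest called change there, and at -0.43 in KO cells, and MBD3 at -0.26 and -0.33. The CHD3 paralogue CHD5 rose in all 4 comparisons, by 0.85 in WT and 0.59 in KO U2OS cells and by 1.13 and 0.97 in AID-DIvA cells. CORO2A, an actin-binding partner of NCoR, also rose in all 4, by 0.69, 0.50, 0.53 and 0.62. Without the library that stood apart the changes in WT U2OS cells were -1.145 for ZMYM3, -0.54 for CTBP1, -1.52 for CHD3, -0.79 for MBD3, 0.74 for CHD5 and 0.58 for CORO2A. In the SIN3 complex 3 of 14 genes fell in WT U2OS cells, and 6 rose and 3 fell in KO cells, beside the same shares of all genes. These 14 include RBBP4 and RBBP7, subunits that NuRD shares, which were not counted under NuRD. RBBP4 stood at -0.57 in WT and -0.53 in KO U2OS cells, and RBBP7 at -0.23 and -0.09, the last not called. Without the library that stood apart, 4 SIN3 genes rose and 7 fell in WT cells, as did 2 and 6 of the NuRD genes. Of all genes 33.9% then rose and 32.5% fell. After recovery 3 SIN3 genes rose and 6 fell in either genotype, beside 23.9% and 23% of all genes in WT and 20.2% and 19.9% in KO cells. SAP30L stood at -0.43 and -0.49 and SAP30 at -0.40 and -0.63. In untreated AID-DIvA cells 10 of the 43 were higher and 7 lower in KO, beside 18.6% and 18.1% of all genes (15 and 12 without KO replicate 3, when 44.4% were called), and in U2OS cells, where 15.2% of all genes were called, 3 were higher and 0 lower by edgeR, with 10 at an unadjusted p below 0.05 and 5 called by DESeq2. In U2OS cells the counts were 16 higher and 8 lower by edgeR without the library that stood apart, when 41.1% of all genes were called, and 1 higher without KO replicate 2 or 3, when 6.02% and 6.03% were. With all libraries no interaction was called among these genes by either tool, with 2 in AID-DIvA and 5 in U2OS cells at an unadjusted p below 0.05, and 1 was called in U2OS cells without untreated WT replicate 1 or 2, when 9.03% and 2.34% of all genes were.

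**Figure D5:**
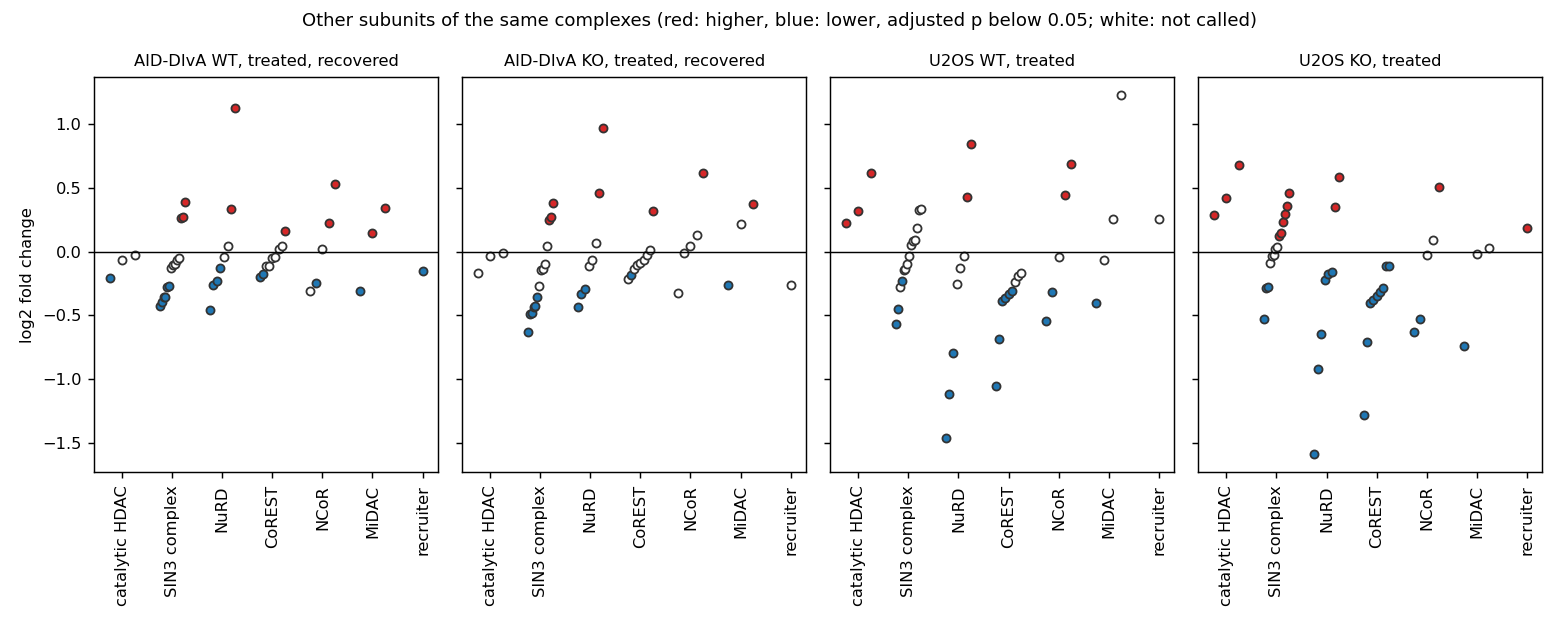
Log2 change with mocetinostat (vertical axis) of the other subunits, grouped by complex (horizontal axis), one point per gene, coloured where the adjusted p was below 0.05. In U2OS cells all 9 CoREST points lie below 0 and the 3 catalytic HDAC points above it.

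Across the 24 libraries, which share 8 groups and are not independent points, MTA2 and MTA3 ran together in log2 CPM (Pearson r 0.927), as did RCOR2 and KDM1A (0.875) and RCOR1 and KDM1A (0.836). RCOR2 ran against MTA3 (-0.909), MTA2 (-0.895) and SIN3A (-0.862), and SIN3A against SIN3B (-0.744). NCOR1 was closest to SIN3A (0.737), and both were low in the library that stood apart. Among 15592 genes with a mean of at least 1 CPM, those most like RCOR2 were VSTM2B (0.99), MAN1C1 (0.989), FAM57B (0.987), SMOX (0.986) and GDF11 (0.985). Those most like NCOR1 were DOCK1 (0.97), KDM3B (0.956), TRPS1 (0.951), COL12A1 (0.948) and HP1BP3 (0.943). These are descriptions over 24 libraries, with no test.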

How the data were processed

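Stranded total RNA libraries were sequenced in pairs of 100 bases. Per the labels and methods, the authors used STAR with hg19/GRCh37, and deposited featureCounts counts per gene without normalization (versions not given in the sources used here). The gene IDs have another form than those of the annotation that the methods name.

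Counts from either strand were tested in R 4.3.3 with edgeR 4.0.16 (TMM, filterByExpr, robust quasi-likelihood fit), with Benjamini-Hochberg adjustment over all genes tested and a threshold of 0.05. Pairs of groups were fitted on their own 6 libraries, interactions on 12 and the difference of responses on 24. The SE is the log2 change divided by the square root of F. RPKM used the deposited exonic length. All 9 members were named, and of the 44 other subunits the 2 highest and 2 lowest called changes per treatment comparison, while HDAC1 to HDAC3, CTBP1, SAP30 and values outside that rule were chosen after they were seen. Alternatives were DESeq2 1.42.0, other scalings and filters, reverse-strand counts, a replicate block, 4 groups in one fit, a fold threshold and each library left out, those for the other subunits, ID3, group levels and shares being chosen after seeing the data. The main edgeR fit was tested on simulated counts for KO U2OS treatment, the AID-DIvA interaction and the difference of responses, and the other steps were not. Members and lists were chosen with earlier results of these data known.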

Additional observations from a re-analysis of the deposited data

Results flagged for a closer look

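The response to mocetinostat differed between U2OS cells (treated) and AID-DIvA cells (treated and recovered) for 7 members, by a test of the difference itself in one edgeR model over the 24 libraries, averaged over the genotypes. On the log2 scale, U2OS minus AID-DIvA, it was 2.036 for RCOR2, 1.121 for RCOR1 and 0.6016 for KDM1A. It was -0.5952 for MTA2, -0.5498 for MTA3, -0.4698 for MTA1 and -0.2369 for SIN3A. Cell line and stage of collection cannot be told apart in these values.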

How the results depend on the processing

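The number of members called moved by more than 1.5 times under few settings, and the cause was not tested. In treated KO AID-DIvA cells it was 5 with the 4 groups in one fit, against 2, with 45.6% and 40.1% of all genes called. Between untreated AID-DIvA genotypes it was 1 without a filter, 1 with the 4 groups in one fit and 0 with the replicate block, against 2. The shares of all genes called there were 20.3%, 28.4% and 35.6%, against 36.7%. A fold threshold, which removes small changes by construction, left 0 in both AID-DIvA treatments and in the AID-DIvA genotypes, 1 in each U2OS treatment and 2 in the difference of responses. With single libraries left out, the number ran from 0 to 2 between AID-DIvA genotypes and from 0 to 5 between U2OS genotypes (5 without untreated WT replicate 1), from 5 to 6 and from 2 to 3 in WT and KO AID-DIvA treatment, from 6 to 9 and from 8 to 9 in WT and KO U2OS treatment, and from 6 to 7 in the difference of responses. The share of all genes called moved too. It ran from 28% to 44.4% between AID-DIvA genotypes, from 6.02% to 41.1% between U2OS genotypes and from 35.9% to 66.4% in WT U2OS treatment. Samples with the same number did not deviate together (r from -0.16 to 0.0825). With 3 replicates per group this cannot tell whether they were handled as pairs, and the labels give only replicate numbers. The replicate block also ended the call of RCOR2 in WT AID-DIvA cells (log2 -0.356, adjusted p = 0.062).

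Changes that were not called reversed in sign as follows. With library totals, MTA2 in KO AID-DIvA treatment was -0.004637 and the difference of responses of SIN3B 0.04517. With the 4 groups in one fit, MTA2 between AID-DIvA genotypes was -0.002348. SIN3B between U2OS genotypes was 0.001447 with DESeq2 and 0.007028 without a filter, and the MTA3 interaction in U2OS 0.01361 without a filter and 0.00575 with at least 10 counts. With single libraries left out, KO AID-DIvA treatment ran from -0.03814 to 0.06348 for MTA2 and from -0.07386 to 0.203 for RCOR2. The AID-DIvA genotype difference ran from -0.08829 to 0.01714 for SIN3B, -0.05408 to 0.03591 for MTA2, -0.001201 to 0.04566 for MTA3 and -0.01033 to 0.04536 for RCOR1. The U2OS genotype difference ran from -0.121 to 0.1388 for SIN3A and -0.1123 to 0.03847 for RCOR2. The AID-DIvA interaction ran from -0.1079 to 0.009929 for SIN3B and -0.124 to 0.008986 for RCOR1. The U2OS interaction ran from -0.1741 to 0.08369 for SIN3A, -0.04098 to 0.05431 for MTA1, -0.03846 to 0.03109 for MTA3, -0.167 to 0.03593 for RCOR1 and -0.3129 to 0.02983 for NCOR1, and the difference of responses of NCOR1 from -0.1065 to 0.07963. No called change reversed. Over all genes the median shifted by at least 0.1 in WT U2OS treatment (0.108 with DESeq2, 0.115 without a filter), in KO U2OS treatment (0.1 with DESeq2) and in the difference of responses (0.142 without a filter, 0.105 with library totals).

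With 3 replicates per group, small differences such as those between genotypes lie near what the spread allows, and RCOR2 in AID-DIvA cells rests on few counts.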
